A study of Mus musculus with 6 samples.

Results

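TNF superfamily genes of immune costimulation were read in whole mouse lungs labelled Foxa2-/- and in control lungs. They are 5 receptors (Tnfrsf9, Tnfrsf4, Tnfrsf18, Cd40 and Tnfrsf11a) and 4 ligands (Tnfsf9, Tnfsf4, Tnfsf11 and Tnfsf13b), 9 of the 18193 genes that the arrays measured by at least 1 probe set of their own. Every probe set whose annotated symbol is exactly 1 of these names was taken, which gave 17 probe sets, and each was read separately. The genes were picked with the difference between Foxa2-/- and control lungs in view, so their values in that comparison are given here as a description and without a test.

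Total RNA of whole lung was hybridised to 1 Affymetrix array per sample. There were 3 arrays from lungs of genotype Foxa2-/- and 3 from wild-type control littermates, all at postnatal day 15. For both groups the strain label reads SPC(+)Cre(-), with doxycycline (Dox) from embryonic day 6.5 to 12.5, so the controls share the doxycycline, and the Cre(-) of that label conflicts with the genotype label of the Foxa2-/- samples. SPC is the usual short name of surfactant protein C, whose promoter is used to drive transgenes in the respiratory epithelium; a deletion driven this way would leave Foxa2 intact in immune cells. Foxa2, a forkhead transcription factor of that epithelium, read 7.72, 5.38 and 5.13 in Foxa2-/- lungs, against 10.28, 10.56 and 10.28 in control lungs (log2). The genotype label therefore follows the signal on all 6 arrays, although replicate 1 of the Foxa2-/- lungs kept the most signal and the limma adjusted p of the difference was 0.0599. The position of this probe set relative to the deleted exons was not analysed here.

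TNF superfamily ligands sit mostly on the surface of antigen-presenting cells, and their receptors on T cells and other lymphocytes. A bound receptor recruits TRAF adaptor proteins and switches on NF-kB, which prolongs the survival and cytokine output of a cell already stimulated through its antigen receptor. In the lung, the pairs Tnfsf9 with Tnfrsf9 (CD137) and Tnfsf4 with Tnfrsf4 (OX40) are known for sustaining T cell responses, and OX40 for its role in type 2 allergic inflammation.

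The data that follow are log2 signals, so a difference of 1 is a 2-fold change. The array medians were 7.85 to 7.90 in Foxa2-/- lungs and 7.89 to 7.91 in controls and precision is limited by having 3 arrays in each group. The difference between the 3-prime and 5-prime control probe sets of Gapdh, a measure of RNA integrity, was 0.91 to 0.97 in Foxa2-/- lungs and 1.06 to 1.23 in controls. The same measure for Actb was 0.43 to 0.47 in Foxa2-/- lungs and 0.46 to 0.65 in controls, which overlap, and the part of either in the results was not tested. The titles of control replicate 2 and of Foxa2-/- replicates 2 and 3 begin with a common number of unstated meaning, and values within these 3 samples, 1 of them a control, are called within-number values. Over all probe sets, Foxa2-/- replicate 1 was closer to control replicate 1 (Pearson's r across probe sets 0.9784) than to Foxa2-/- replicates 2 and 3 (0.9763 and 0.9773). Lung epithelial markers were read on all arrays. The surfactant gene Sftpc read 14.35 to 14.42 in Foxa2-/- lungs and 14.36 to 14.43 in controls, and the transcription factor gene Nkx2-1 8.26 to 8.51 in Foxa2-/- lungs and 8.15 to 8.57 in controls. Sftpd read 13.96 to 14.04 in Foxa2-/- lungs and 13.16 to 13.39 in controls, which do not overlap.

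The DNA before the starts of the members is shown first, and its part in their signals was not tested. RefSeq promoter entries (GRCm38.p6) were found for 6 of the 9 genes, in 8 windows, and not for Tnfsf9, Tnfsf4 and Cd40. The 250 bases before each start were searched on both strands for the letters TGTTTNC (forkhead), GGGNNTTTCC (NF-kB), TGANTCA (AP-1) and TTCNNNNGAA (STAT6). The 2 annotated starts of Tnfrsf9 are shown because they differ, and the upstream start of Tnfsf13b because it holds the STAT6 letters. Capitals mark the matches.
Tnfrsf9, first start, chr4:150919905-150920154, plus strand: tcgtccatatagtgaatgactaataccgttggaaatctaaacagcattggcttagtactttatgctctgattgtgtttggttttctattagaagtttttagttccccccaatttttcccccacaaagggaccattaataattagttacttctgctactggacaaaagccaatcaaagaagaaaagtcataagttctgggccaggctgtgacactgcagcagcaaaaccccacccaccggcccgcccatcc
Tnfrsf9, second start, chr4:150927749-150927998, plus strand: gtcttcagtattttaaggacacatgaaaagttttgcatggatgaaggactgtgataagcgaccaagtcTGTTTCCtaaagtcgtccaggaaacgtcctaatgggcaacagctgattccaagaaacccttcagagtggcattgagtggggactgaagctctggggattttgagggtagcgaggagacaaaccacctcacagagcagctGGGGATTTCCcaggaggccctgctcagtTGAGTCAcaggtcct
Tnfsf13b, first start, chr8:10006217-10006466, plus strand: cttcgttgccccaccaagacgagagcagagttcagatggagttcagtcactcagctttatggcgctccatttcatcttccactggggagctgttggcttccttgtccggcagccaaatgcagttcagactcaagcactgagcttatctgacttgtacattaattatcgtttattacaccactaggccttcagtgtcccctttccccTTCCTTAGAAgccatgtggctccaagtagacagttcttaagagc

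The window of the second Tnfrsf9 start held TGTTTCC starting 182 bases before the start, GGGGATTTCC at 43 bases and TGAGTCA at 15 bases. The window of the first Tnfrsf9 start held none of the 4 motifs, and neither did those of Tnfrsf4, Tnfrsf18, Tnfrsf11a and Tnfsf11. Tnfsf13b held TTCCTTAGAA in both of its windows, which overlap, and TGAGTCA in the second. Among all 32851 promoter windows of the same length, the forkhead letters occurred in 17.8%, the NF-kB letters in 1.41%, the AP-1 letters in 6.75% and the STAT6 letters in 5.85%. A match is a description of the letters in this window and not a binding site. On chromosome 4, no other protein-coding gene lies between Tnfrsf4 and Tnfrsf18 in the RefSeq order.

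Of the 17 probe sets, 14 had a higher mean in Foxa2-/- lungs and 3 a lower one, the 3 being those of Cd40. In 8 probe sets, from 7 genes, every Foxa2-/- array lay above every control, which was the case for 9.73% of all 45037 probe sets tested. No member probe set had every Foxa2-/- array below every control (7.76% of all probe sets). In the limma fit over all probe sets, 1 of the 17 was past an adjusted p of 0.05, the brightest of Tnfrsf9, beside 0.0999% of all probe sets (0.0799% higher and 0.02% lower in Foxa2-/- lungs). In the fit over genes, each represented by its brightest probe set, 3 of the 9 members were past it, all higher in Foxa2-/- lungs (Tnfrsf9, Tnfsf9 and Tnfrsf18), beside 0.572% of all genes (0.473% higher, 0.0989% lower). In the same fit over genes none of the 9 passed without control replicate 1, 2 or 3 or Foxa2-/- replicate 3, Tnfrsf9 alone passed without Foxa2-/- replicate 2, and 4 passed without Foxa2-/- replicate 1, Tnfsf13b being added. These counts restate the choice of the members and nothing is read from them. In whole-lung RNA, more cells that carry a transcript and more transcript per cell cannot be told apart.

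**Figure D1:**
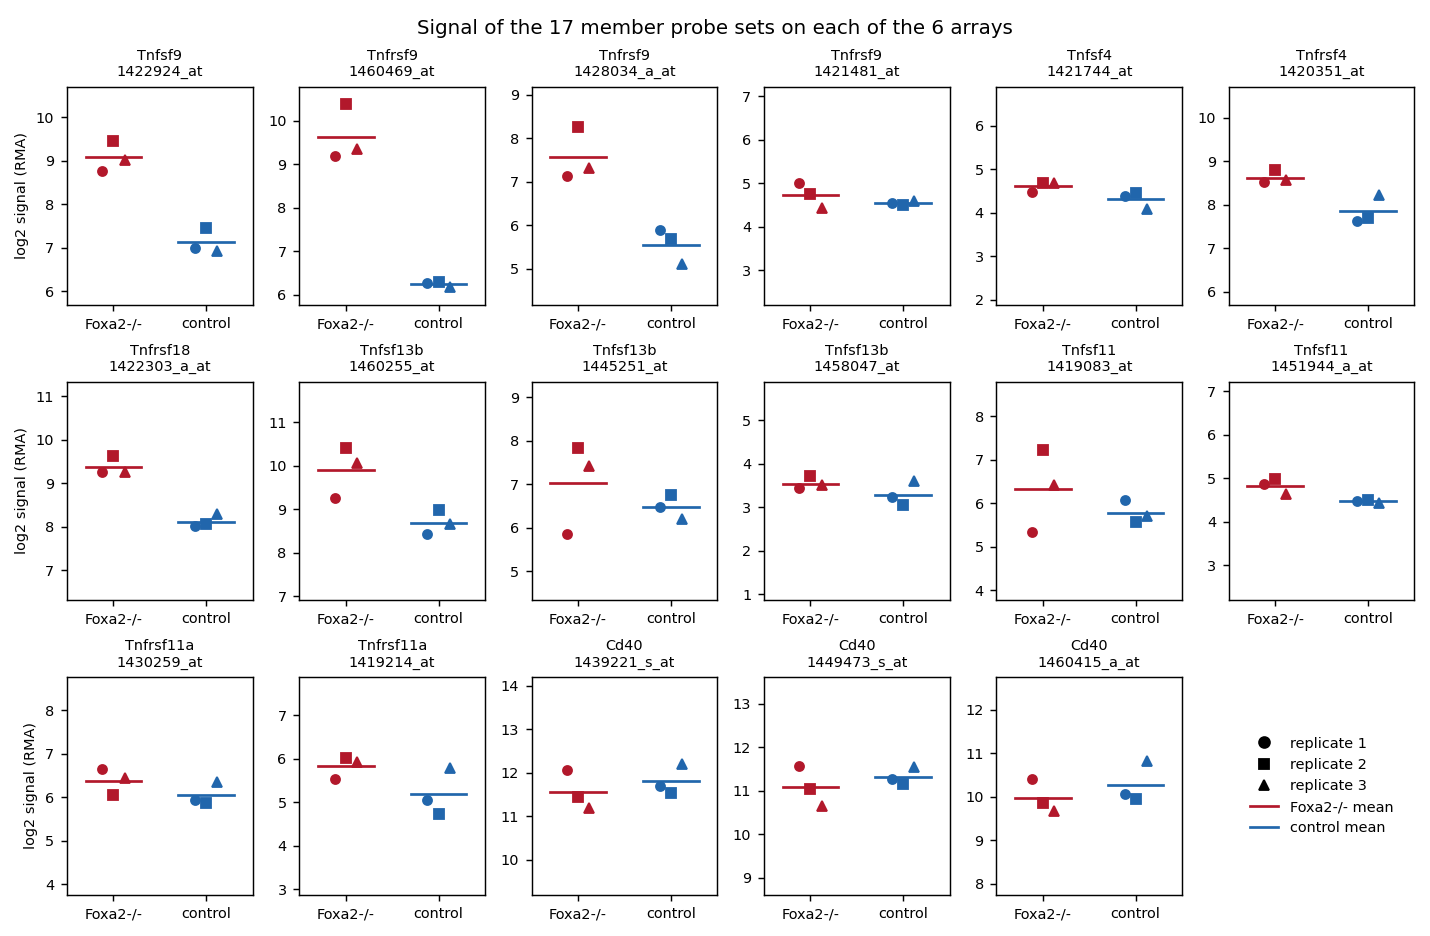
Log2 signal (RMA, vertical axis, each panel spanning the same range of log2 units) of the 17 member probe sets on the 3 Foxa2-/- arrays (red, left) and the 3 control arrays (blue, right); marker shapes are replicates and lines are group means. The widest gap is at Tnfrsf9 1460469_at, where the Foxa2-/- lungs read 9.20 to 10.38 and the controls 6.18 to 6.31, while the Cd40 panels overlap.

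The receptor Tnfrsf9, or CD137, appears on T cells after activation and also on activated natural killer, mast and dendritic cells. Its brightest probe set (1460469_at) read 9.20, 10.38 and 9.35 in Foxa2-/- lungs, against 6.27, 6.31 and 6.18 in controls. The controls lay within a narrow band, above but near the 25th percentiles of their arrays (5.69 to 5.75). Each Foxa2-/- lung stood far above that band, replicate 2 the highest. The difference was 3.39 (SE 0.30, 95% interval 2.66 to 4.12), or 10.5-fold. It ran from 3.03 to 3.61 when each array was left out in turn, and the within-number value was 3.55. The adjusted p stayed under 0.05 without Foxa2-/- replicate 1 or 2, but not without any 1 control or Foxa2-/- replicate 3, where no probe set of the array passed.

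The other Tnfrsf9 probe sets gave smaller differences. Probe set 1428034_a_at read 7.14, 8.25 and 7.33 in Foxa2-/- lungs, against 5.89, 5.68 and 5.11 in controls, a difference of 2.01 (SE 0.34). The groups were apart here too, with replicate 2 again the highest of the Foxa2-/- lungs. In 2 of the 3 controls this probe set lay below the 25th percentile of its array (5.69 to 5.78 over the arrays), where signal cannot be told from background with these values. Probe set 1421481_at read 5.0, 4.76 and 4.42 in Foxa2-/- lungs, against 4.55, 4.49 and 4.59 in controls. It was below the 25th percentile on all 6 arrays, the groups overlapped, and the difference was 0.19 (SE 0.17). The 3 probe sets are tied in the annotation to different sequence records, and which Tnfrsf9 transcripts each one detects was not analysed here.

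Tnfsf9, the only known ligand of Tnfrsf9, is carried by activated dendritic cells, macrophages and B cells. Its single probe set (1422924_at) read 8.77, 9.46 and 9.02 in Foxa2-/- lungs, against 7.00, 7.45 and 6.93 in controls. All 3 Foxa2-/- lungs were above all controls, and replicate 2 was the highest of each group. The difference was 1.96 (SE 0.22, 95% interval 1.42 to 2.49), or 3.88-fold, and ran from 1.77 to 2.12 with each array left out. The within-number value was 1.80. Receptor and ligand of this pair were thus both higher in Foxa2-/- lungs, and in both the Foxa2-/- lung with the highest signal was replicate 2 and the one with the lowest was replicate 1.

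Tnfrsf18, or GITR, marks regulatory T cells and rises on other T cells when they are activated. Probe set 1422303_a_at read 9.27, 9.63 and 9.25 in Foxa2-/- lungs, against 8.02, 8.06 and 8.29 in controls. The lowest Foxa2-/- lung stood nearly 1 log2 unit above the highest control. The difference was 1.26 (SE 0.15, 95% interval 0.89 to 1.63) (about 2.4-fold), and the within-number value was 1.38. Its ligand Tnfsf18 had no probe set of its own in the annotation used here.

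Tnfrsf4, or OX40, is another receptor of activated T cells. Probe set 1420351_at read 8.52, 8.80 and 8.58 in Foxa2-/- lungs, against 7.62, 7.70 and 8.23 in controls. The groups did not overlap, although control replicate 3 came closest to the Foxa2-/- lungs. The difference was 0.78 (SE 0.19, 95% interval 0.33 to 1.23), or 1.72-fold. Within the common number it was 0.98.

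The ligand of OX40, Tnfsf4, which dendritic cells express when driven toward type 2 responses, was dim on every array. Its only probe set (1421744_at) read 4.49, 4.69 and 4.70 in Foxa2-/- lungs, against 4.4, 4.46 and 4.09 in controls. All 6 values lie below the 25th percentile of their arrays, so the difference of 0.31 (SE 0.14, 95% interval -0.03 to 0.66) gives no reading of its size, and it is not known whether the transcript was detected.

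Tnfsf13b encodes BAFF, a survival factor for B cells that comes mainly from myeloid cells. Its brightest probe set (1460255_at) read 9.25, 10.41 and 10.07 in Foxa2-/- lungs, against 8.43, 8.99 and 8.66 in controls. The groups were apart, but Foxa2-/- replicate 1 stood closer to the highest control than to the other Foxa2-/- lungs. The difference was 1.22 (SE 0.31, 95% interval 0.47 to 1.97), or 2.33-fold, and the within-number value was 1.25. It was 1.55 without Foxa2-/- replicate 1 and 0.97 without Foxa2-/- replicate 2.

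A second BAFF probe set (1445251_at) showed the same split among the Foxa2-/- lungs. It read 5.86, 7.83 and 7.41 in Foxa2-/- lungs, against 6.48, 6.75 and 6.19 in controls. Foxa2-/- replicate 1 lay below all controls and the other Foxa2-/- lungs above them, and the difference of 0.56 (SE 0.49) was 1.15 without Foxa2-/- replicate 1, 0.16 without replicate 2 and 0.37 without replicate 3. The third (1458047_at) was below the 25th percentile on every array and differed by 0.26 (SE 0.17). Tnfrsf13c, the main BAFF receptor of B cells, differed by 0.22 (SE 0.41, limma adjusted p = 0.858), and Tnfrsf13b, or TACI, by 0.20 (SE 0.19, limma adjusted p = 0.713). Tnfrsf17, or BCMA, a receptor of plasma cells, read 6.61, 6.99 and 6.64 in Foxa2-/- lungs, against 6.35, 6.32 and 6.34 in controls, a difference of 0.41 (SE 0.13, limma adjusted p = 0.28). None of these 3 passed.

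Tnfsf11, or RANKL, is made by activated T cells and stroma and acts on dendritic cells and osteoclast precursors. Its brighter probe set (1419083_at) read 5.34, 7.22 and 6.41 in Foxa2-/- lungs, against 6.07, 5.57 and 5.70 in controls. Foxa2-/- replicate 1 was the lowest of all 6 arrays and replicate 2 the highest, so the groups overlapped. Foxa2-/- replicate 1 and control replicates 2 and 3 lay below the 25th percentile of their arrays, where neither ranks nor gaps can be read. The difference was 0.54 (SE 0.45), 0.10 without Foxa2-/- replicate 2, 1.04 without Foxa2-/- replicate 1 and 1.24 as a within-number value. The other probe set (1451944_a_at), dim on every array, had all Foxa2-/- lungs above all controls with a difference of 0.36 (SE 0.13).

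Tnfrsf11a, or RANK, the receptor of RANKL, gave overlapping groups in both of its probe sets. Probe set 1430259_at read 6.64, 6.05 and 6.45 in Foxa2-/- lungs, against 5.94, 5.87 and 6.34 in controls, and differed by 0.33 (SE 0.20), or 0.20 to 0.50 with each array left out. Probe set 1419214_at read 5.52, 6.02 and 5.91 in Foxa2-/- lungs, against 5.05, 4.72 and 5.78 in controls. Its difference of 0.63 (SE 0.29) had a within-number value of 1.24, and 3 of its 6 values lie below the 25th percentile. Control replicate 3 was the highest control in both. Tnfrsf11b, osteoprotegerin, the soluble decoy of RANKL, read 6.30, 7.60 and 6.79 in Foxa2-/- lungs, against 7.25, 7.48 and 6.86 in controls, a difference of -0.30 (SE 0.34, limma adjusted p = 0.758).

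Cd40 is carried by B cells, dendritic cells and macrophages and licenses them when its ligand on T cells binds. It is the one member whose mean was lower in Foxa2-/- lungs, in all 3 of its probe sets and well above the dim range. The brightest (1439221_s_at) read 12.06, 11.45 and 11.19 in Foxa2-/- lungs, against 11.71, 11.53 and 12.21 in controls. Foxa2-/- replicate 1 lay among the controls, replicates 2 and 3 lay below them, and the difference was -0.25 (SE 0.27, 95% interval -0.90 to 0.41). The probe set 1449473_s_at differed by -0.23 (SE 0.25) and 1460415_a_at by -0.30 (SE 0.29), and in both, as in the first, Foxa2-/- replicate 1 was the highest and replicate 3 the lowest of the Foxa2-/- lungs. The sizes rest on single arrays. Without Foxa2-/- replicate 1 the differences at the 3 probe sets, in this order, were -0.50, -0.48 and -0.51, without Foxa2-/- replicate 3 they were -0.06, -0.01 and -0.14, and without control replicate 3 they were -0.05, -0.12 and -0.02. The suffix of the first 2 marks probe sets whose probes can match more than 1 transcript. Cd40lg, the ligand, read 5.57, 5.77 and 5.58 in Foxa2-/- lungs, against 5.57, 5.63 and 5.25 in controls, near the 25th percentile, and differed by 0.16 (SE 0.14, limma adjusted p = 0.706).

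**Figure D2:**
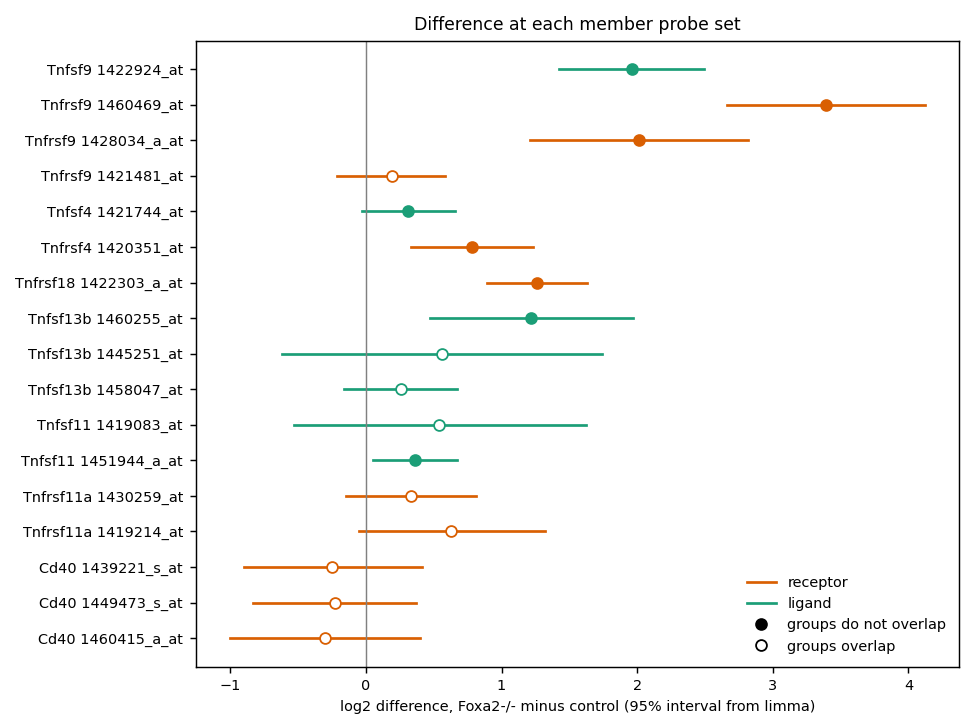
Log2 difference, Foxa2-/- minus control, at each of the 17 member probe sets (points) with the 95% interval from limma (lines); orange marks receptors, green ligands, and filled points probe sets whose groups do not overlap. Tnfrsf9 1460469_at lies farthest to the right at 3.39, and the 3 Cd40 probe sets lie left of 0 with intervals that include it.

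The members split in how the Foxa2-/- lungs ranked. Of the 14 probe sets with a higher mean in Foxa2-/- lungs, 11 were highest in replicate 2 among the Foxa2-/- lungs, among them 7 of the 8 whose groups did not overlap. The share of all probe sets with this rank was not counted, so nothing is read from these counts. They include Tnfsf11 1451944_a_at and Tnfsf13b 1458047_at, below the 25th percentile on all arrays, and Tnfsf11 1419083_at, whose ranks cannot be read. The gap between replicates 2 and 1 was 1.17 at Tnfrsf9 1460469_at, 0.69 at Tnfsf9, 0.36 at Tnfrsf18 and 0.28 at Tnfrsf4. At Tnfsf13b it was 1.16 at 1460255_at and 1.98 at 1445251_at, and it ran the other way at Cd40 (-0.62 at 1439221_s_at). Replicate 1, which kept the most Foxa2 signal, lay above every control at the brightest probe sets of Tnfrsf9, Tnfsf9, Tnfrsf18, Tnfrsf4 and Tnfsf13b, and below every control at Tnfsf13b 1445251_at. At Tnfsf11 it was below every control at 1419083_at and above every control at 1451944_a_at, with its own value below the 25th percentile in both.

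Genes of the same family and pathway were listed for what they are and counted in the fit over genes. None of the 4 lists had a gene past the adjusted p of 0.05, beside 0.572% of all genes. At an unadjusted limma p under 0.05, 17 of their genes were counted, and 12.3% of all genes. The 17 held 3 of 10 other ligands and 6 of 22 other receptors. The rest were 6 of 19 TRAF and NF-kB genes and 2 of 13 CD28 and B7 genes. The median difference over all genes was 0.01, and 50.8% of them were positive.

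Of 10 other TNF ligands measured, 8 had a positive difference, with a median of 0.24, which was 0.08 without Foxa2-/- replicate 2 and 0.40 without Foxa2-/- replicate 3. Tnfsf14, or LIGHT, a ligand of activated T cells, read 7.56, 8.68 and 8.22 in Foxa2-/- lungs, against 6.87, 6.97 and 6.91 in controls, a difference of 1.24 (SE 0.27, limma adjusted p = 0.128). Tnf itself differed by 0.37 (SE 0.12, limma adjusted p = 0.28). In both, every Foxa2-/- lung was above every control, as in 4 of the 10 (10.8% of all genes), and neither passed.

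Of 22 other TNF receptor superfamily genes, 18 had a positive difference, with a median of 0.23. Tnfrsf1b, the TNF receptor of lymphocytes and myeloid cells, read 10.31, 10.56 and 10.40 in Foxa2-/- lungs, against 9.68, 9.58 and 9.29 in controls. Its difference of 0.90 (SE 0.14) had a limma adjusted p of 0.0605. Relt, a receptor of blood and lymphoid cells, differed by 0.84 (SE 0.22, limma adjusted p = 0.184). Every Foxa2-/- lung was above every control in 6 of the 22 (10.8% of all genes) and below every control in 1 (8.73% of all genes).

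Of 19 genes for TRAF adaptors and the NF-kB pathway, through which these receptors signal, 12 had a positive difference, with a median of 0.16. With single arrays left out the median ran from 0.06 (without control replicate 1) to 0.26 (without control replicate 3), and was 0.08 to 0.10 without Foxa2-/- replicate 1 or 2 or control replicate 2. The smallest p values were those of Nfkbie and Bcl3, an NF-kB inhibitor and a nuclear relative of it. Nfkbie read 10.0, 10.05 and 9.56 in Foxa2-/- lungs, against 8.42, 8.72 and 8.86 in controls, a difference of 1.20 (SE 0.19, limma adjusted p = 0.0599). Bcl3 differed by 0.73 (SE 0.15, limma adjusted p = 0.118). In 7 of the 19 every Foxa2-/- lung was above every control (10.8% of all genes), and in none below (8.73%).

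The CD28 and B7 family is the other large group of costimulatory genes. Of 13 measured, 12 had a positive difference, with a median of 0.76, which was 0.40 without Foxa2-/- replicate 2 and 0.49 without control replicate 3. Pdcd1lg2, or PD-L2, a ligand that type 2 cytokines induce on dendritic cells and macrophages, read 8.02, 9.0 and 8.34 in Foxa2-/- lungs, against 6.08, 7.11 and 6.48 in controls. Its difference was 1.90 (SE 0.34, limma adjusted p = 0.08). Its receptor gene Pdcd1 differed by 1.38 (SE 0.32, limma adjusted p = 0.145), and both were clear of overlap, the only 2 of the 13 (10.8% of all genes). For the 9 members by their brightest probe sets the median was 0.78 and 8 were positive, which describes genes chosen for this comparison.

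**Figure D3:**
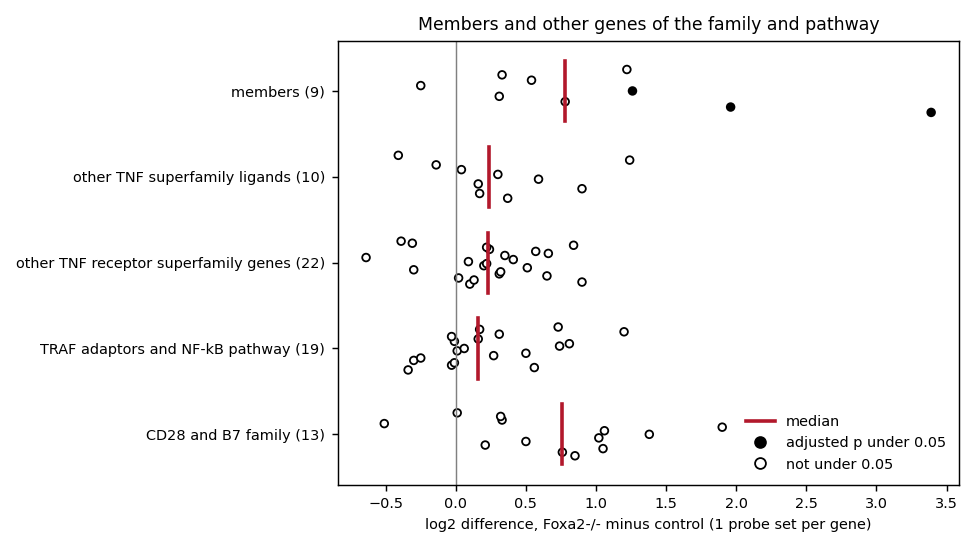
Log2 difference, Foxa2-/- minus control, of each gene (1 probe set per gene) among the 9 members and 4 lists of other family and pathway genes, with the number of genes measured in brackets; the red line is the median. Filled points, with a limma adjusted p under 0.05, appear only among the members, which were chosen on this comparison; list medians run from 0.16 to 0.76.

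Markers of cells that can carry these genes were read on the same arrays, as mean log2 levels over each list. The T cell list (8 genes) averaged 9.56, 10.35 and 9.19 in Foxa2-/- lungs, against 8.79, 9.49 and 7.62 in controls. The groups overlapped, no gene passed, and every Foxa2-/- lung was above every control for 2 of the 8 (10.8% of all genes). All 8 differences were positive, with a median of 0.93. That median was 0.42 without control replicate 3 and 0.19 as a within-number value. Over all genes 50.8% were positive and the median was 0.01. Cd8a, a coreceptor of cytotoxic T cells, differed by 2.27 (SE 0.76, limma adjusted p = 0.297) and Cd4, that of helper T cells, by 1.06 (SE 0.40, limma adjusted p = 0.349). Across the controls the T cell list spanned 7.62 to 9.49 while Tnfrsf9 1460469_at spanned 6.18 to 6.31. The Tnfrsf9 values lay nearer to the 25th percentiles of the control arrays (5.69 to 5.75) than the list means did, so the spans are not compared.

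The regulatory T cell list (6 genes) averaged 7.57, 8.07 and 7.74 in Foxa2-/- lungs, against 7.38, 7.56 and 7.29 in controls, and none of its genes passed. Of the 6 differences 4 were positive and 2 negative, those of Ikzf4 (-0.29, SE 0.21) and Gpr83 (-0.04, SE 0.18). Foxp3, the defining factor of regulatory T cells, read 6.92, 7.05 and 6.83 in Foxa2-/- lungs, against 6.48, 6.72 and 6.41 in controls, a difference of 0.40 (SE 0.13, limma adjusted p = 0.281). Il2ra, the high-affinity interleukin receptor chain of these cells, differed by 0.84 (SE 0.30, limma adjusted p = 0.331). The list and both of these genes were highest in Foxa2-/- replicate 2, as were Tnfsf9, Tnfrsf4, Tnfrsf18 and the brightest Tnfrsf9 probe set. The T cell, type 2 innate lymphoid cell, natural killer cell, dendritic cell, macrophage and eosinophil lists were also highest there. That rank is thus not particular to regulatory T cells.

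The mean levels of 5 of the 12 cell type lists were higher on every Foxa2-/- array than on any control: the regulatory T cell list (lowest Foxa2-/- array 7.57, highest control 7.56) and the lung epithelium list (13.04 and 13.00) narrowly, and those of dendritic cells, macrophages and eosinophils. How often the means of other gene lists lie apart in this way was not counted, so nothing is read from the 5. Among single genes 10.8% of all genes did so, and 0.473% of all genes passed as higher in Foxa2-/- lungs. The macrophage and eosinophil lists share Siglecf, so they are not separate counts. The dendritic cell list (9 genes) averaged 9.4, 9.81 and 9.54 in Foxa2-/- lungs, against 8.72, 9.07 and 7.91 in controls, and 1 gene passed. That gene, the chemokine Ccl17, rose by 2.44 (SE 0.29, limma adjusted p = 0.036). Of the 9 differences 8 were positive, among them Ccr7 at 0.16 (SE 0.31), and Zbtb46 differed by -0.03 (SE 0.13). Their median was 0.82, which was 0.49 without control replicate 3 and 0.41 as a within-number value. The macrophage list (10 genes) averaged 10.96, 11.69 and 11.48 in Foxa2-/- lungs, against 10.47, 10.53 and 10.37 in controls. In it the lysosomal gene Cd68 rose by 1.45 (SE 0.13, limma adjusted p = 0.0198) and the integrin Itgax by 1.94 (SE 0.23, limma adjusted p = 0.036). No gene of the dendritic cell or macrophage list passed without any 1 control, Foxa2-/- replicate 2 or Foxa2-/- replicate 3. The eosinophil list (6 genes) averaged 7.79, 8.88 and 8.51 in Foxa2-/- lungs, against 6.30, 6.34 and 6.90 in controls, and 3 genes rose, the granule genes Prg2 (3.50, SE 0.26, limma adjusted p = 0.0152), Epx (2.4, SE 0.23, 0.0208) and Prg3 (1.55, SE 0.21, 0.0429). Prg3 lay below the 25th percentile in all 3 controls and Epx in 2 of them, so the sizes of these differences are not read. None of the 6 genes passed without control replicate 1, control replicate 2, Foxa2-/- replicate 2 or Foxa2-/- replicate 3. Without control replicate 3 Prg2 and Epx still passed and the other 4 did not. Without Foxa2-/- replicate 1, 3 of the 6 genes passed, and Prg3 was not among them (limma adjusted p = 0.0568).

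The B cell list (7 genes) gave 9.70, 9.42 and 9.04 in Foxa2-/- lungs, against 9.51, 9.16 and 8.85 in controls. These overlap, none of the genes passed, and the smallest p values were those of Cd22 (0.67, SE 0.28, limma adjusted p = 0.412) and Cd79b (0.37, SE 0.28, limma adjusted p = 0.656). As in the Cd40 probe sets, replicate 1 was the highest of the Foxa2-/- lungs and replicate 3 the lowest. The controls differed in this, as control replicate 3 was the lowest control for the B cell list and the highest at every Cd40 probe set. The part of cell numbers in the members' differences was not tested.

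**Figure D4:**
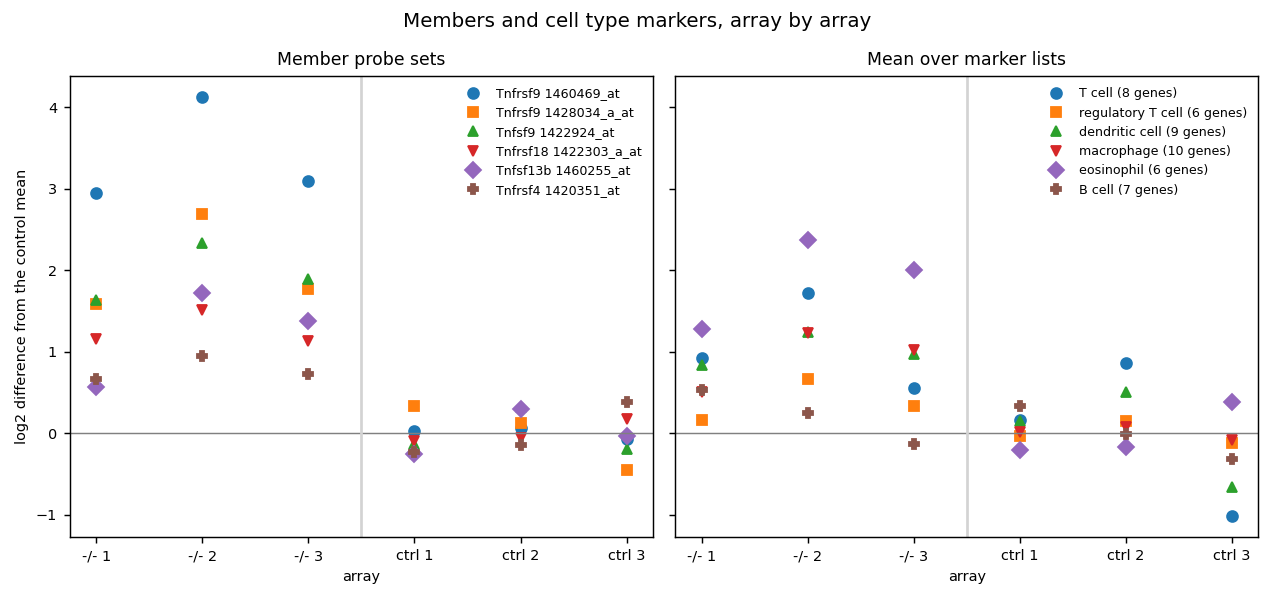
Log2 difference from the control mean on each of the 6 arrays (Foxa2-/- 1 to 3 left, control 1 to 3 right) for the 6 member probe sets that did not overlap and were not dim in all controls (left panel) and for the mean of 6 marker lists (right panel). The separation of the groups in the left panel follows from how its probe sets were picked; in the right panel the T cell list overlaps, control replicate 2 (9.49) being above Foxa2-/- replicate 3 (9.19).

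The genes whose pattern over the 6 arrays was most like the members with the largest differences were found by Pearson's r over the 18193 genes. As the 6 arrays fall into 2 groups, r mostly follows the difference between them, and it is given as a description. For Tnfrsf9 these were F10, the coagulation factor X gene (r = 0.998), Arpp21 (0.9972), Mybph (0.995), Cfp, the complement factor properdin (0.9946), and Frrs1 (0.9943). Arpp21 lay below the 25th percentile in all 3 controls. F10 read 9.77, 10.32 and 9.76 in Foxa2-/- lungs, against 8.17, 8.36 and 8.17 in controls, and so was highest in Foxa2-/- replicate 2, as the brightest Tnfrsf9 probe set was. For Tnfsf9 they were Pnpla7 (0.9973), Ccl17 (0.9953), the apoptosis gene Bid (0.9948), the myosin gene Myo1f (0.9947) and Itgb2, the shared chain of leukocyte integrins (0.9939). Ccl17 read 11.82, 12.51 and 11.75 in Foxa2-/- lungs, against 9.39, 10.10 and 9.29 in controls, so that replicate 2 was the highest of each group for both genes. For Tnfrsf18 they were Sdf2l1 (0.9985), Fxyd4 (0.9985), Lgals3 (0.9981), Ppfia4 (0.9973) and Rab27a (0.9965).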

How the data were processed

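Whole-lung RNA of 6 samples was measured on Affymetrix arrays. The authors deposited log2 values made with RMA, per the submitters' processing notes, which name no version. The scale was read from the range, 2.36 to 14.95, and at equal ranks the arrays lay within 0.14 of each other. RMA equalises arrays, so a shift of most genes one way would not be seen. Groups came from the genotype label; replicate numbers follow accession order and pair nothing. Since the labels do not say that the arrays came from different animals, the p-values rest on a spread that may be technical.

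Of 45101 probe sets, 64 Affymetrix controls were left out and 45037 were tested without a brightness filter; 34945 had 1 gene symbol, 932 several and 9160 are unnamed here. Foxa2-/- was compared with control in R 4.3.3 with limma 3.58.1 (two-sided, lmFit then eBayes, Benjamini-Hochberg over all probe sets or, in a separate fit, over 18193 genes by their brightest probe set). The fits were tested on simulated data.

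Members and lists were chosen with earlier results of these data known. Of the lists, 4 hold pathway genes and 12 cell type markers. Named are Foxa2, the members, their partners, from each list up to 4 genes that passed or else 2 with the smallest p, and the 5 genes with the highest r to each of the 3 members with the largest differences. Alternatives were median centring, cyclic loess, 2 brightness filters, trend and robust eBayes, array weights, the title number as a random (statmod 1.5.0) or fixed block, each array left out, another threshold and averaging the probe sets of each gene.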

Additional observations from a re-analysis of the deposited data

How the results depend on the processing

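All 17 member differences kept their sign under every alternative in which the probe set was tested. At Tnfrsf9 1460469_at the difference ran from 3.03 to 3.61, at Tnfsf9 from 1.77 to 2.12, at Tnfrsf18 from 1.14 to 1.38 and at Tnfrsf4 from 0.67 to 0.98. The counts of calls depended on the setting, and the cause was not tested. With all arrays limma called 45 probe sets (36 higher, 9 lower), 1 of them a member, and 104 genes. Cyclic loess called 6 probe sets (2 higher, 4 lower), none a member (0 of 17; 7 at an unadjusted p under 0.05). Median centring called 2 members and 2 genes of the 4 pathway lists (pathway genes). Trend and robust settings called 72 probe sets and 2 members. Array weights called 564 probe sets, 5 members, 607 genes and 6 pathway genes (5 higher, 1 lower). The title number as a random block called 279 probe sets, 3 members, 399 genes and 4 pathway genes. As a fixed block, which rests on the 1 control and 2 Foxa2-/- samples that share it, it called 0 probe sets, 0 members and 0 genes (4507, 10 and 2121 at an unadjusted p under 0.05). An adjusted p under 0.1 called 232 probe sets, 3 members, 320 genes and 3 pathway genes, where 0 pathway genes passed under 0.05. The brightest 50 percent of probe sets held 3 called members, as did the fit over genes. With each array left out, the calls ran from 0 to 144 for probe sets, 0 to 2 for members, 0 to 249 for genes and 0 to 1 for pathway genes, and were highest without Foxa2-/- replicate 1. They were 0 for probe sets without any 1 control or Foxa2-/- replicate 3 (3477 to 4489 at an unadjusted p under 0.05), and 0 for genes without control replicate 1, control replicate 2 or Foxa2-/- replicate 3 (1654 to 2111). Without Foxa2-/- replicate 2 they were 3 probe sets and 7 genes, and without control replicate 3, 19 genes. In the fit over genes, a count added after seeing the data, 3 members passed with all arrays, 0 to 4 with each array left out, 5 with array weights, 0 with the title number as a fixed block and 3 in every other alternative fit. The median difference of the other TNF ligands was -0.14 over the brightest 50 percent, where 1 of the 10 genes was left. Apart from the blocks on the title number, no paired analysis was possible because replicate numbers follow accession order and pair no samples. Probe sets below the 25th percentile of their arrays (4 of the 17 on all arrays) give no reading of the size of a change.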

Other observations

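Marker lists of other cells were read on the same arrays, as mean log2 levels. The list of type 2 innate lymphoid cells (7 genes), some of which carry Tnfrsf18, averaged 8.29, 9.34 and 9.04 in Foxa2-/- lungs, against 8.43, 8.71 and 8.18 in controls, and none of its genes passed. Klrg1, an inhibitory receptor of activated lymphocytes, differed by 1.73 (SE 0.67, limma adjusted p = 0.37) and Id2 by 0.36 (SE 0.16, limma adjusted p = 0.426). Of the 7 differences 6 were positive, among them Gata3 at 0.09 (SE 0.21), and Rora differed by -0.58 (SE 0.35, limma adjusted p = 0.568). The natural killer cell list (6 genes) spanned 6.75 to 9.09 in Foxa2-/- lungs and 5.96 to 8.57 in controls. Ncr1, an activating receptor of these cells that lay below the 25th percentile in all controls, differed by 1.09 (SE 0.52, limma adjusted p = 0.471) and Prf1, perforin, by -0.17 (SE 0.11, limma adjusted p = 0.59).

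The neutrophil list (7 genes) spanned 9.71 to 10.20 in Foxa2-/- lungs and 9.48 to 10.19 in controls, with Csf3r at 0.29 (SE 0.15, limma adjusted p = 0.498) and Cxcr2 at 0.59 (SE 0.34, limma adjusted p = 0.557). The mast cell list (8 genes) spanned 7.34 to 7.63 in Foxa2-/- lungs and 7.17 to 7.44 in controls, with the protease genes Mcpt4, below the 25th percentile in 2 controls, at 0.60 (SE 0.18, limma adjusted p = 0.246) and Cma1 at 0.65 (SE 0.23, limma adjusted p = 0.329). The lung epithelium list (9 genes) spanned 13.04 to 13.12 in Foxa2-/- lungs and 12.91 to 13.00 in controls, with the surfactant genes Sftpd at 0.68 (SE 0.11, limma adjusted p = 0.0719) and Sftpa1 at 0.32 (SE 0.14, limma adjusted p = 0.407). The endothelium and stroma list (9 genes) spanned 12.63 to 12.89 in Foxa2-/- lungs and 12.83 to 12.92 in controls, with the endothelial receptors Tek at -0.30 (SE 0.11, limma adjusted p = 0.333) and Kdr at -0.36 (SE 0.18, limma adjusted p = 0.496). No gene of these lists passed. In the mast cell list 5 differences were positive and 3 negative, and in the lung epithelium list 5 were positive and 4 negative.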
